A study of Mus musculus with 36 samples.

Results

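The 2 genes whose mutations cause the dominant and the recessive form of polycystic kidney disease were set directly against each other in the kidney of 12-day-old mice. The comparison covers 6 of the 36 libraries of the series, the 3 labelled Pkd1-RC/RC and the 3 labelled Pkhd1-/- at postnatal day 12 (P12), matched from table columns to labels by the mouse number in each sample title. The whole series sets these single mutants beside wild-type mice and a digenic group that carries both mutations, at postnatal days 0, 3 and 12, with 3 libraries in each group. All mice were of the C57BL/6 strain, and each library was made from total RNA of whole kidney and read as 150 bp pairs. Mice of the Pkd1-RC/RC group are homozygous for RC, a missense allele that lowers the function of polycystin-1 without removing it, and their genotype label names no Pkhd1 mutation. Mice of the Pkhd1-/- group are homozygous for a knockout of Pkhd1, and their label names no Pkd1 mutation. The labels do not state which part of Pkhd1 is deleted or whether mice of different groups were littermates. Nor do they say that the 3 libraries of a group came from separate mice or litters. The p-values therefore measure only the spread between libraries of a group, estimated over all genotypes of the age together.

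Pkd1 encodes polycystin-1, a large membrane protein that forms a complex with the ion channel polycystin-2 (Pkd2) in the primary cilium. Pkhd1 encodes fibrocystin, a membrane protein of the cilium and apical cell pole of collecting duct and bile duct cells. Loss of either protein turns tubules into fluid-filled cysts, with the collecting duct as a main site of cysts in the recessive disease. Collecting duct principal cells take up sodium through the epithelial sodium channel and water through aquaporins under aldosterone and vasopressin.

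The 6 libraries held 55046364 to 70020647 counts each. The deposited header of Pkd1-RC/RC replicate 2 names the other single mutant, and the label was kept: Pkhd1 stood at 230 counts scaled to library size (CPM) in that library, and the authors' deposited means of both groups lie within 0.51 counts of the means of the libraries as labelled for 100% of genes. Digenic replicate 1, which enters the shared fit, also has a header of another age. By sex-linked transcripts all 3 Pkd1-RC/RC mice were male, while Pkhd1-/- replicates 1 and 2 were female and replicate 3 was male. Sex and genotype are therefore unevenly combined in every P12 result below. At postnatal day 0 (P0), Pkd1-RC/RC replicates 1 and 2 and Pkhd1-/- replicates 1 and 3 were female and the others of these groups male. At postnatal day 3 (P3), only Pkd1-RC/RC replicate 1 of these groups was female. Headers name the other sex for Pkhd1-/- replicate 1 at P0 and for Pkd1-RC/RC replicate 1 and Pkhd1-/- replicate 2 at P3. Among the 6 libraries of P12, Pkhd1-/- replicate 3 stood apart by transcripts of the adrenal gland, with a sum of 284 CPM over 13 genes. The sums were 16.6 and 19.8 CPM in the other Pkhd1-/- libraries and 22.99 to 24.61 CPM in the Pkd1-RC/RC libraries. In the digenic libraries of the shared fit they were 16.3, 226.5 and 296.6 CPM. The part of these transcripts in the differences was not tested, and counts without Pkhd1-/- replicate 3 are given. Fat transcripts were uneven as well, with sums of 215 to 531 CPM in Pkd1-RC/RC and 256 to 499 CPM in Pkhd1-/-.

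The collecting duct genes on which the comparison turns first are shown here by the bases around their transcription start, because 3 of the 4 (Scnn1b, Scnn1g and Gata3) are principal cell genes and the fourth, Cldn4, is a tight junction gene of the same duct. Each run holds 250 bases before to 50 bases after the start, 5′ to 3′ on the coding strand, from RefSeq on GRCm38.p6: Scnn1b at chr7:121864788-121865087 (+), Scnn1g at chr7:121734229-121734528 (+), Gata3 at chr2:9878551-9878850 (-) and Cldn4 at chr5:134946885-134947184 (-). Capitals mark matches to the AP-2 palindrome GCCNNNGGC or to a GATA motif, read as AGATAA with its variant AGATAG or TGATAA with its variant TGATAG, searched on both strands, and no matches of the 2 kinds overlap.
Scnn1b: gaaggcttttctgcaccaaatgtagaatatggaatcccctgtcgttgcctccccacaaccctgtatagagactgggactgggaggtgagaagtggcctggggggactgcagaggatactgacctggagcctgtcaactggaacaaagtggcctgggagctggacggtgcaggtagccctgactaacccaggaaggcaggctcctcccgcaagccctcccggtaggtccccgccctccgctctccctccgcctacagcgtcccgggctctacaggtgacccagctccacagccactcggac
Scnn1g: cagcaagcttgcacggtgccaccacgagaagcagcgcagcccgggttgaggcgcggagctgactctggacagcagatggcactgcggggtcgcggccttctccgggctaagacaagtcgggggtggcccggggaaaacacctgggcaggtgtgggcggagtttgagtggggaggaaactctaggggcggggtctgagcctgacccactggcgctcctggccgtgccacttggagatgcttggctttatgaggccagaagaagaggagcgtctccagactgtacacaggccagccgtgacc
Gata3: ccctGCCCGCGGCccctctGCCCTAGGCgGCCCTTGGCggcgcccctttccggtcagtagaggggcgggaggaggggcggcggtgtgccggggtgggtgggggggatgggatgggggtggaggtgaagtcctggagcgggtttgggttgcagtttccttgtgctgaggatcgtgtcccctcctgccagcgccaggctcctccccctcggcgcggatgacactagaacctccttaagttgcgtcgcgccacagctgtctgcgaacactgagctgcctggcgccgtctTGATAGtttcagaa
Cldn4: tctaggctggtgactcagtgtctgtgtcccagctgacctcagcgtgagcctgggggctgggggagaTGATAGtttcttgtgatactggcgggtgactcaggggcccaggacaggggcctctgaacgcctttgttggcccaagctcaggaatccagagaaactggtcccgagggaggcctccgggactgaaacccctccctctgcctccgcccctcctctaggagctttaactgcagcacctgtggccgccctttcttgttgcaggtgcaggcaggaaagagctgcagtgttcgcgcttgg
Factors that recognise these motifs, Gata3 and Tfap2a (AP-2 alpha), are among the genes that differed. The Gata3 window held 3 AP-2 matches and 1 GATA match, the Cldn4 window held 1 GATA match, and the windows of Scnn1b and Scnn1g held none of either. Among 27025 RefSeq promoters, one for each gene symbol, 16.5% hold an AP-2 match and 30.2% a GATA match, and among the 11870 of these that belong to tested genes the shares are 24.7% and 19.2%. A match describes these letters and is not evidence of binding. RefSeq promoters were found for 59 of the 92 genes called below.

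Pkhd1 separated the groups in the direction of their labels. It stood at 224, 230 and 214 CPM in the 3 Pkd1-RC/RC kidneys and at 19.5, 18.9 and 20.1 CPM in the 3 Pkhd1-/- kidneys, and the wild-type kidneys held 246, 176 and 222 CPM. The log2 difference, Pkd1-RC/RC minus Pkhd1-/-, was 3.52 ± 0.19 (SE, n = 3 and 3, edgeR adjusted p = 5.08e-06). An antisense transcript inside Pkhd1, 4930486I03Rik (chr1:20356452-20392300), read 4.52, 4.52 and 4.74 CPM in Pkd1-RC/RC and 0.0159, 0.0149 and 0 CPM in Pkhd1-/-. Whether the counting used strand is unknown, so its reads cannot be told apart from those of Pkhd1. Pkd1 (chr17:24549834-24596508) was at 84.7, 73.7 and 104 CPM in Pkd1-RC/RC and 95.2, 85.4 and 76.3 CPM in Pkhd1-/-. These groups overlap and the log2 difference was 0.03 ± 0.13 (adjusted p = 0.959). Pkd2 was at 215, 230 and 250 CPM in Pkd1-RC/RC and 182, 191 and 172 CPM in Pkhd1-/-, without overlap, but its log2 difference of 0.35 ± 0.08 did not pass (adjusted p = 0.0915).

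Of 18002 genes tested at P12, 92 differed between the single mutants at an adjusted p under 0.05, which is 0.511% of the genes: 51 (0.283%) were higher and 41 (0.228%) lower in Pkd1-RC/RC. The 3 libraries of one group lay wholly above the 3 of the other for all 92, and so they did for 22.1% of all tested genes. The called differences were at least 2-fold for 40 genes. A term for sex left 26 genes called (0.144%), 25 of them among the 92, and every one of the 92 kept its sign. Calls that held with sex included those of Pkhd1, 4930486I03Rik, Adhfe1, Rnps1, Dynlt1b, Ermard, Rsph3a, Scnn1b, Scnn1g, Nell2, Padi2, Eno1b, Rab6b, Igfbp2, Ckb, Uroc1 and Fbxo44. The naming rule picked 47 genes, among them Pkd1 and Pkd2, which were not called, and 27 of the 47 lost their call with sex. With the 8 male libraries alone, where Pkhd1-/- has a single library that is assumed to vary like the other groups, 7 genes were called. Without Pkd1-RC/RC replicate 1 the count rose to 320, of which 83 were among the 92, and without any other single library it fell to between 35 and 47 (35 without Pkhd1-/- replicate 1, 36 without replicate 2, 47 without replicate 3, 46 without Pkd1-RC/RC replicate 2 and 42 without replicate 3).

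Among genes known from the collecting duct, those of the epithelial sodium channel of the principal cell were higher in whole kidney of Pkd1-RC/RC. Scnn1b, which encodes its beta subunit (chr7:121865038-121918514), stood at 127, 124 and 136 CPM in Pkd1-RC/RC and at 79.4, 88.8 and 83.6 CPM in Pkhd1-/-. Every Pkd1-RC/RC kidney was above every Pkhd1-/- kidney, and the log2 difference was 0.62 ± 0.07 (adjusted p = 0.00108; 0.00462 with sex in the model). Scnn1g, the gamma subunit (chr7:121734479-121768475), stood at 115, 112 and 136 CPM against 75.6, 81.5 and 76.2 CPM, again without overlap (0.64 ± 0.09, adjusted p = 0.00605; 0.0142 with sex). Both calls held without each of the 6 libraries in turn. The alpha subunit gene Scnn1a pointed the same way at 0.42 ± 0.13 but did not pass (adjusted p = 0.22). Wild-type kidneys lay between the mutants for Scnn1b, at 97.2, 99.3 and 92.4 CPM, and digenic kidneys were highest, at 180, 180 and 193 CPM.

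Other duct genes were also higher in Pkd1-RC/RC than in Pkhd1-/-. Gata3, a transcription factor of the collecting duct, was at 36.9, 42.0 and 38.7 CPM in Pkd1-RC/RC and 27.0, 25.5 and 27.3 CPM in Pkhd1-/- (0.56 ± 0.10, adjusted p = 0.0228). Cldn4, a claudin of collecting duct tight junctions, was at 85.0, 96.1 and 88.7 CPM against 65.3, 60.1 and 61.4 CPM (0.53 ± 0.09, adjusted p = 0.0202). Neither gene had overlapping groups. Their calls were lost with sex in the model (adjusted p = 0.19 and 0.187) and without any single library other than Pkd1-RC/RC replicate 1, with log2 differences that stayed between 0.48 and 0.59 when 1 library was left out.

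Across the principal cell list, edgeR called 3 of 18 measured genes and DESeq2 called 5, all higher in Pkd1-RC/RC, and all 18 had a positive difference with a median of 0.36 on the log2 scale, beside 0.01 over all tested genes. The 3 Pkd1-RC/RC libraries lay above the 3 Pkhd1-/- libraries for 11 of the 18, where 11.6% of all tested genes did so. Among members that did not pass were Hsd11b2, which keeps cortisol-type hormones off the aldosterone receptor (0.39 ± 0.10, adjusted p = 0.134), the water channel Aqp3 (0.59 ± 0.18, adjusted p = 0.231) and the vasopressin receptor Avpr2 (0.49 ± 0.16, adjusted p = 0.248). The other vasopressin-regulated water channel, Aqp2, was high in 1 library only: 340, 300 and 883 CPM in Pkd1-RC/RC against 315, 315 and 298 CPM in Pkhd1-/- (adjusted p = 0.45). Summed over the list, principal cell transcripts were 4100, 4527 and 4893 CPM in Pkd1-RC/RC, 3662, 3763 and 3676 CPM in Pkhd1-/-, 3685 to 3851 CPM in wild type and 5994 to 6764 CPM in digenic kidneys. In whole kidney a larger share of such cells and more RNA per cell cannot be told apart. For intercalated cells, the acid-secreting neighbours in the same duct, 0 of 18 genes were called by edgeR (6 had an unadjusted p under 0.05, all higher, and DESeq2 called 3), the median was 0.18 (0.11 without Pkd1-RC/RC replicate 3 and among males) and 8 of 18 had all Pkd1-RC/RC libraries above. Over all tested genes, 12.4% had an unadjusted p under 0.05, 6.7% higher and 5.72% lower in Pkd1-RC/RC, and the counts at an unadjusted p given for this and other lists stand beside these shares. Foxi1, the defining transcription factor of intercalated cells, was at 0.47 ± 0.10 (adjusted p = 0.0735).

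**Figure D1:**
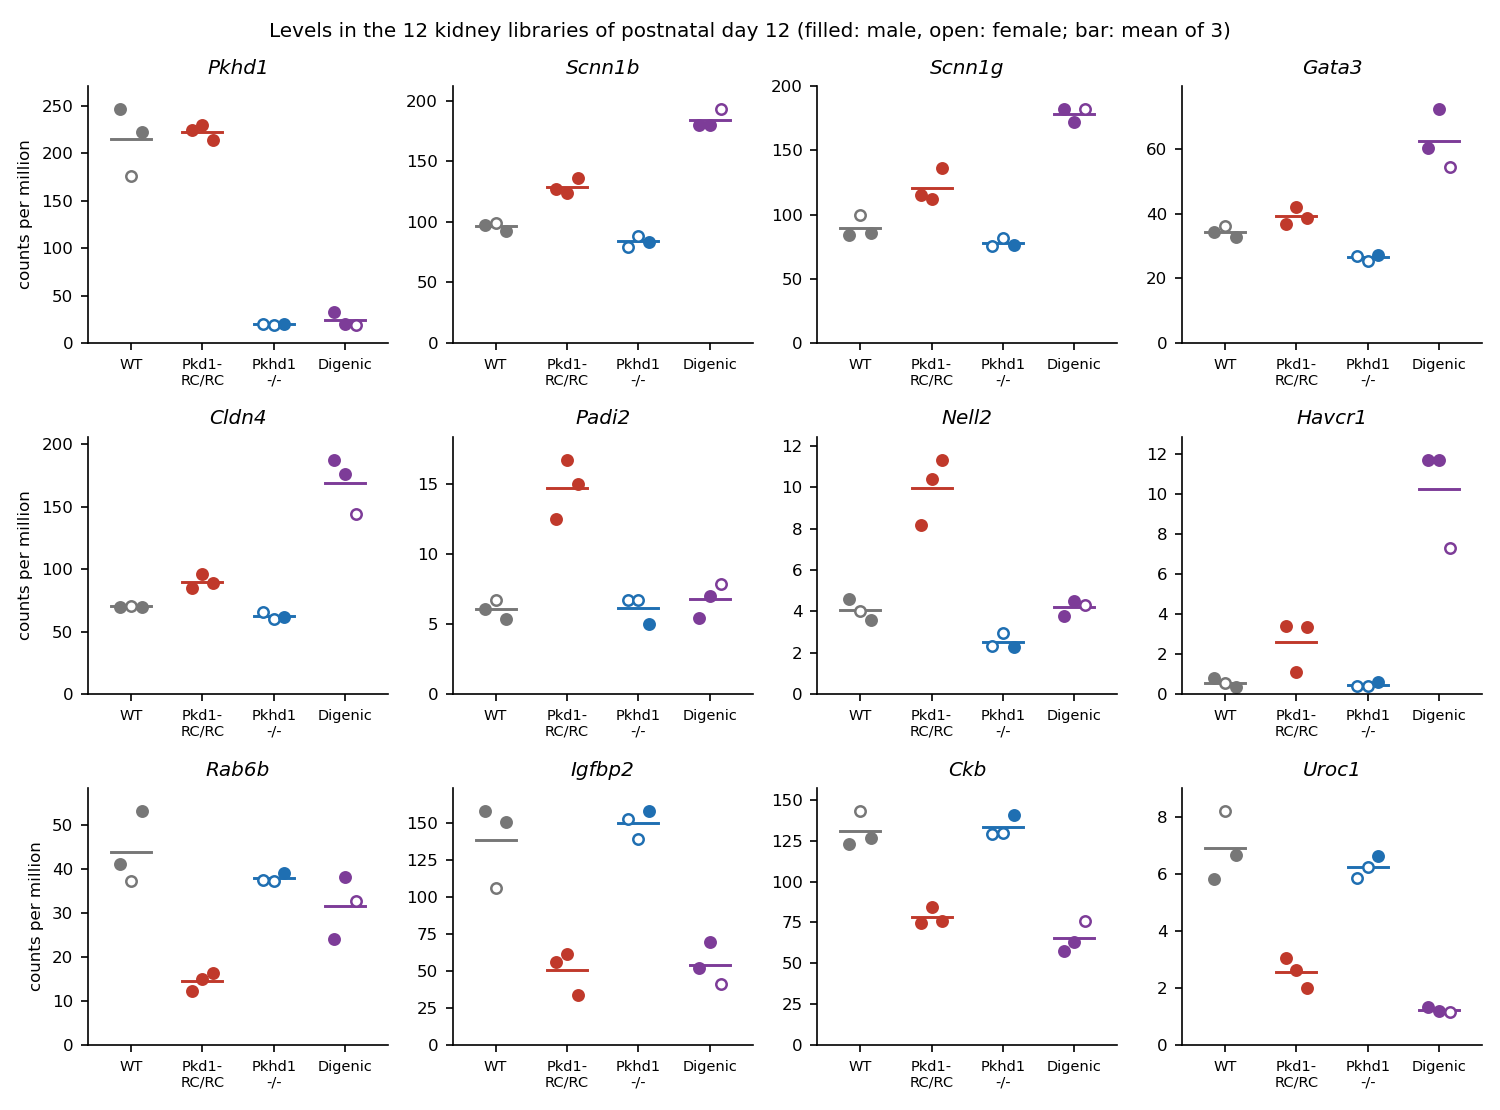
Level of 12 genes in CPM in each of the 12 kidney libraries of postnatal day 12, with genotype on the x axis, filled points for male and open points for female mice, and a bar at the mean of 3. For Scnn1b the Pkd1-RC/RC kidneys at 124 to 136 sit above the Pkhd1-/- kidneys at 79.4 to 88.8, and for Rab6b the order is turned.

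Beyond these duct genes, Nell2 had the smallest adjusted p among the named genes that lie more than 20 Mb from both mutated genes. Nell2, a secreted glycoprotein with EGF-like repeats (chr15:95075230-95528559), was at 8.18, 10.4 and 11.3 CPM in Pkd1-RC/RC and 2.30, 2.93 and 2.29 CPM in Pkhd1-/- (1.99 ± 0.17, adjusted p = 0.00013; 0.0015 with sex). Wild-type kidneys held 4.61, 4.02 and 3.59 CPM and digenic kidneys 3.79, 4.48 and 4.29 CPM, so Pkd1-RC/RC was above and Pkhd1-/- below both. Padi2, a peptidylarginine deiminase, was at 12.5, 16.7 and 15 CPM against 6.70, 6.74 and 5.04 CPM (1.26 ± 0.17, adjusted p = 0.00521). Wild-type (5.37 to 6.71 CPM) and digenic kidneys (5.42 to 7.86 CPM) lay with Pkhd1-/- for Padi2. The calls of Nell2 and Padi2 held without each library in turn.

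Genes of tubular injury and early response were also among those higher in Pkd1-RC/RC. Havcr1, which encodes the injury marker KIM-1, was at 3.40, 1.08 and 3.34 CPM in Pkd1-RC/RC, 0.415, 0.402 and 0.581 CPM in Pkhd1-/-, and 11.7, 11.7 and 7.33 CPM in digenic kidneys. Its groups did not overlap (2.49 ± 0.43, adjusted p = 0.026), but the call was lost with sex in the model (adjusted p = 0.175) and without Pkd1-RC/RC replicate 3 or any one of the Pkhd1-/- libraries, with differences of 2.24 to 2.85. It was the only one that edgeR called of 28 measured injury genes, whose median was 0.18. DESeq2 called 3 of them, and 8 had an unadjusted p under 0.05, all higher. Lgals3, a galectin (0.60 ± 0.13, adjusted p = 0.0735), and the keratin Krt18 (0.63 ± 0.15, adjusted p = 0.114) came next. Egr2, an immediate early transcription factor, was at 1.51, 1.08 and 1.61 CPM against 0.638, 0.506 and 0.512 CPM (1.34 ± 0.26, adjusted p = 0.0478). Egr2 lost its call with sex in the model (adjusted p = 0.264) and without each library in turn, with differences of 1.23 to 1.50. It was the only one that edgeR called of 20 immediate early genes, whose median was 0.25 (0.11 without Pkd1-RC/RC replicate 3 and 0.38 with sex). DESeq2 called 2 of them, and 8 had an unadjusted p under 0.05, all higher.

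Among the other genes called higher, Angptl7, a secreted angiopoietin-like protein, was at 50.7, 46.8 and 20.3 CPM against 9.95, 14.2 and 12.2 CPM (1.70 ± 0.32, adjusted p = 0.0484), and at 0.656 to 1.06 CPM in digenic kidneys. Tfap2a, the AP-2 alpha transcription factor, was at 6.58, 9.13 and 8.12 CPM against 3.67, 4.75 and 4.83 CPM (0.85 ± 0.16, adjusted p = 0.0411). Hpcal4, a calcium sensor of the hippocalcin family, was at 6.73, 8.39 and 9.03 CPM against 3.16, 3.93 and 4.37 CPM (1.08 ± 0.17, adjusted p = 0.0145). All 3 had separate groups. Bnipl (1.27 ± 0.23), Ifitm10 (1.31 ± 0.24), Tbx10 (1.26 ± 0.25) and Efcab7 (1.13 ± 0.22), a cilium protein of the hedgehog pathway, were called at levels of 4.13 CPM or less in these 6 libraries. The calls of Tfap2a, Bnipl, Ifitm10 and Efcab7 were lost without any library other than Pkd1-RC/RC replicate 1. That of Angptl7 was lost without any other than Pkd1-RC/RC replicate 3. That of Hpcal4 was lost without Pkd1-RC/RC replicates 2 or 3 or Pkhd1-/- replicates 1 or 2, and that of Tbx10 without each of the 6. With 1 library left out the differences ran from 0.72 (Tfap2a) to 2.01 (Angptl7). With sex in the model the calls of all these genes were lost, at adjusted p from 0.105 (Hpcal4) to 0.345 (Efcab7).

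In the other direction, Rab6b, a small GTPase of Golgi traffic (chr9:103111787-103185276), was lower in Pkd1-RC/RC, with 12.2, 14.9 and 16.4 CPM against 37.4, 37.3 and 39.0 CPM in Pkhd1-/- (-1.39 ± 0.17, adjusted p = 0.0035). Wild-type kidneys held 41.0, 37.2 and 53.0 CPM of it. Igfbp2, which binds insulin-like growth factors, was at 55.8, 61.6 and 34.1 CPM against 153, 139 and 158 CPM (-1.57 ± 0.24, adjusted p = 0.0172; 0.0083 with sex), and digenic kidneys at 41.4 to 69.5 CPM lay with Pkd1-RC/RC. Ckb, the brain-type creatine kinase, was at 74.5, 84.6 and 76.2 CPM against 129, 130 and 141 CPM (-0.77 ± 0.10, adjusted p = 0.00463). Uroc1, an enzyme of histidine breakdown, was at 3.07, 2.63 and 2.01 CPM against 5.87, 6.27 and 6.64 CPM (-1.28 ± 0.18, adjusted p = 0.00582). The groups were separate for all 4 genes. The calls of Rab6b, Ckb and Uroc1 held without each library and with sex in the model, while that of Igfbp2 was lost without any one of the Pkhd1-/- libraries (differences of -1.74 to -1.36).

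Chrna4, a nicotinic receptor subunit, was at 19.8, 14.6 and 12.9 CPM against 35.2, 42.9 and 29.9 CPM (-1.19 ± 0.20, adjusted p = 0.0232). Stbd1 (-1.04 ± 0.20), which tethers glycogen, Vstm2a (-1.13 ± 0.21), Mro (-0.95 ± 0.18), Fam126a (-0.73 ± 0.13), Caap1 (-0.73 ± 0.11) and the F-box protein gene Fbxo44 (-0.83 ± 0.10) were also among the 12 largest decreases. Of these, the call of Fbxo44 held without each library; those of Stbd1, Vstm2a and Mro were lost without any library but Pkd1-RC/RC replicate 1, that of Fam126a without Pkd1-RC/RC replicate 2 or Pkhd1-/- replicates 1 or 2, that of Caap1 without Pkd1-RC/RC replicate 2 or Pkhd1-/- replicates 2 or 3, and that of Chrna4 without Pkd1-RC/RC replicates 2 or 3 or Pkhd1-/- replicates 1 or 2, at differences of -1.40 (Chrna4) to -0.61 (Fam126a).

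Fuel-handling genes were lower in Pkd1-RC/RC in 2 called cases of 18 glycolysis genes. Pgk1, phosphoglycerate kinase, was at 142, 114 and 104 CPM against 184, 183 and 171 CPM (-0.58 ± 0.12, adjusted p = 0.0496). Eno1, enolase, was at 383, 388 and 356 CPM against 509, 509 and 503 CPM (-0.43 ± 0.09, adjusted p = 0.0484). P4ha1, a collagen prolyl hydroxylase of the hypoxia list, was at 89.9, 91.1 and 78.6 CPM against 119, 114 and 109 CPM (-0.40 ± 0.08, adjusted p = 0.0484), and was the 1 called of 15. All 3 calls sat close to the threshold and were lost with sex in the model (adjusted p = 0.309, 0.288 and 0.287) and without any library but Pkd1-RC/RC replicate 1, with differences of -0.73 to -0.34. The glycolysis median was -0.25 (-0.14 with sex). Eno1b, a near-identical copy of Eno1, went the other way, with 53.7, 59.2 and 47.7 CPM against 18.5, 19.2 and 20.5 CPM (1.47 ± 0.14, adjusted p = 0.000308). Reads of a gene and a near-identical copy can be assigned to either, so the values of Eno1 and Eno1b are uncertain.

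In the cell cycle list, which holds genes of DNA replication and mitosis, edgeR called 0 of 28 genes and DESeq2 called 1, while 20 had an unadjusted p under 0.05, all lower in Pkd1-RC/RC, where 5.72% of all tested genes were. In that list 27 of 28 differences were negative and the median was -0.58. All Pkd1-RC/RC libraries lay below all Pkhd1-/- libraries for 16 of the 28, where 10.4% of all tested genes did so. Pcna, the replication clamp, was at 68.8, 59.4 and 52.5 CPM against 87.4, 77.3 and 91.2 CPM (-0.50 ± 0.13, adjusted p = 0.141), and Top2a, topoisomerase of dividing cells, at 123, 71.4 and 57.5 CPM against 134, 124 and 136 CPM (-0.65 ± 0.26, adjusted p = 0.341). Pkd1-RC/RC replicate 1 was the highest of its group for both genes, and without it the list median was -0.94. Wild-type kidneys, at 1608, 1679 and 1223 CPM over the list, spanned most of the range from Pkd1-RC/RC (1571, 1198 and 1037 CPM) to Pkhd1-/- (1763, 1627 and 1732 CPM). The list median was 0.34 at P0 and 0.10 at P3, on the other side of zero.

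Of 39 oxidative phosphorylation genes edgeR called 0 and DESeq2 called 2, and 19 had an unadjusted p under 0.05, all lower. All 39 differences were negative and the median was -0.24 (-0.15 without Pkd1-RC/RC replicate 3). All Pkd1-RC/RC libraries lay below all Pkhd1-/- libraries for 23, where 10.4% of all tested genes did so. The list median was -0.22 at P0 and -0.11 at P3, on the same side of zero. Ndufs1, a complex I subunit, was at 227, 196 and 189 CPM against 252, 274 and 261 CPM (-0.36 ± 0.09, adjusted p = 0.114). Of 26 genes of cholesterol and fatty acid synthesis edgeR called 0 and DESeq2 called 6, and 15 had an unadjusted p under 0.05, all lower, with a median of -0.29. Cyp51, a demethylase of cholesterol synthesis, was at 64.5, 70.5 and 49.5 CPM against 96.3, 87.2 and 98.2 CPM (-0.61 ± 0.14, adjusted p = 0.0937). Fatty acid oxidation had a median of 0.04 over 30 genes, with Decr2, a peroxisomal reductase near Pkd1, as the 1 called by edgeR (-0.55 ± 0.10, adjusted p = 0.0275). In that list DESeq2 called 6 higher and 1 lower, and 7 higher and 1 lower had an unadjusted p under 0.05.

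Proximal tubule transporters, 33 genes, had 0 calls by edgeR and 3 by DESeq2, 8 genes with an unadjusted p under 0.05 lower and 1 higher, and a median of -0.17 that was -0.04 among males and -0.08 without Pkhd1-/- replicate 2. The sodium-phosphate transporter Slc34a1 was at 2280, 2280 and 2140 CPM in Pkd1-RC/RC against 2510, 2910 and 2670 CPM in Pkhd1-/- (-0.27 ± 0.11, adjusted p = 0.349). Genes of the cilium and intraflagellar transport, 55 in number, had a median of -0.01 and 0 calls by edgeR or DESeq2, with 4 at an unadjusted p under 0.05 higher and 2 lower, no larger a share than the 12.4% of all tested genes. Of 31 genes of cAMP and vasopressin signalling edgeR called 0 and DESeq2 called 1 (4 at an unadjusted p under 0.05, all higher) and the median was 0.12, or 0.05 with sex and 0.05 and 0.06 without Pkd1-RC/RC replicate 3 and Pkhd1-/- replicate 2. Macrophage genes, 23 in number, had 0 calls by edgeR or DESeq2 (3 at an unadjusted p under 0.05, all higher) and a median of 0.27, or 0.17 without Pkd1-RC/RC replicate 1 and 0.44 with sex. Of all tested genes, 6.7% were higher at an unadjusted p under 0.05 and 12.4% differed in either direction. Differences were positive for 20 of the 31 cAMP and vasopressin genes and for 21 of the 23 macrophage genes. All Pkd1-RC/RC libraries lay above all Pkhd1-/- libraries for 6 and 9 of them, and for 11.6% of all tested genes. Macrophage transcripts summed to 277 to 311 CPM in Pkd1-RC/RC, 238 to 249 CPM in Pkhd1-/- and 588 to 1581 CPM in digenic kidneys. The part of macrophage transcripts in the differences above was not tested.

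**Figure D2:**
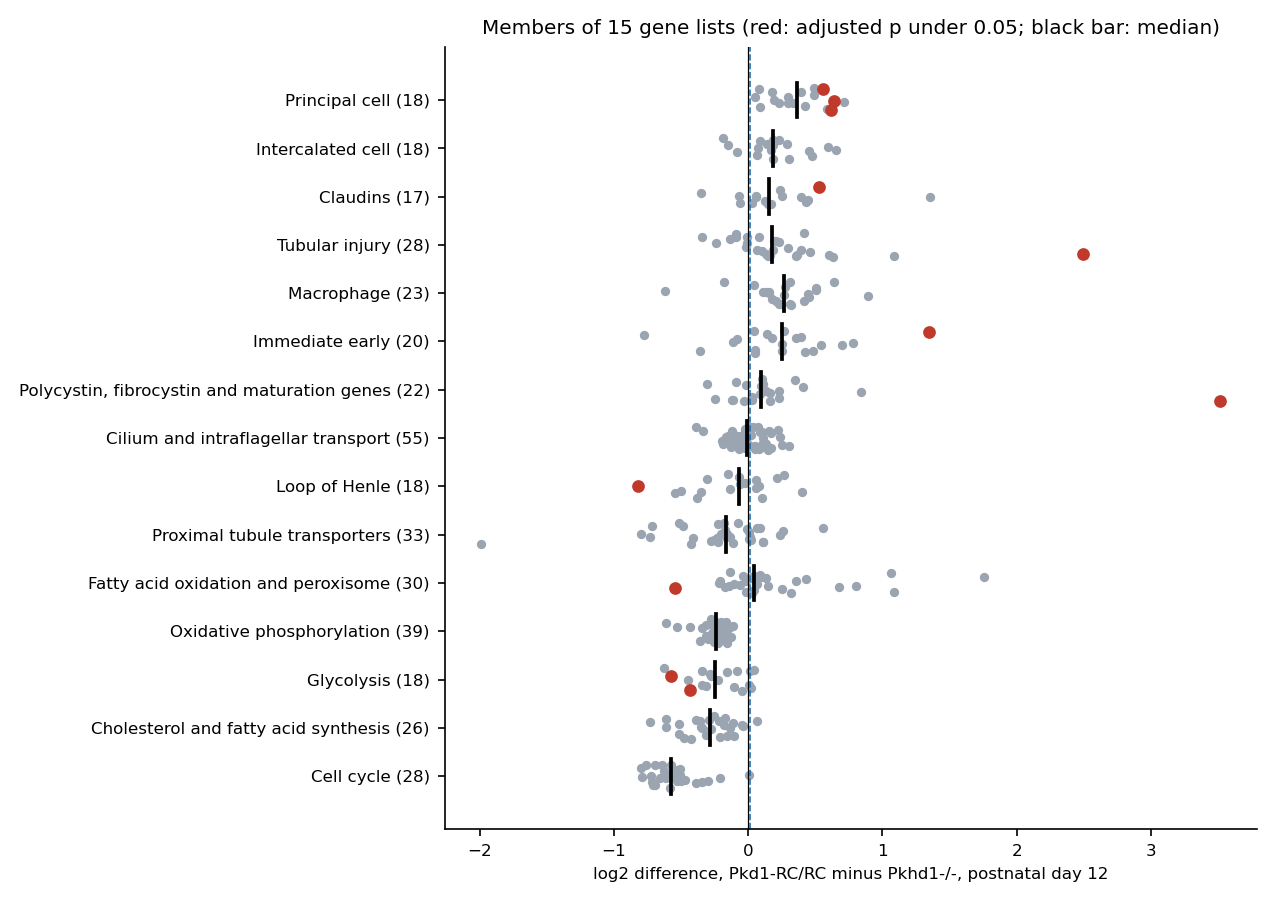
Log2 difference, Pkd1-RC/RC minus Pkhd1-/-, of every measured member of 15 gene lists at postnatal day 12 (x axis), with the number of members in brackets, called genes in red, list medians as black bars and the median of all tested genes as a dashed line. The principal cell members all lie above 0 with a median of 0.36, and the cell cycle members lie below 0 except for 1, with a median of -0.58.

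Called genes took a larger share of the genes around the mutated genes than elsewhere. Within 20 Mb of Pkd1 on chromosome 17, 23 of 536 tested genes were called (4.29%, 14 higher and 9 lower in Pkd1-RC/RC), and within 20 Mb of Pkhd1 on chromosome 1, 5 of 180 (2.78%, all higher), against 64 of 17286 elsewhere (0.37%, 32 in each direction). The 5 near Pkhd1 include the knocked-out gene itself and 4930486I03Rik inside it, so their share and direction are not those of neighbours alone. The difference between these shares was not tested, since neighbouring genes are not independent. Near Pkd1, Rnps1, a factor of the exon junction complex (chr17:24414565-24425901), was at 22.4, 20.9 and 21.1 CPM in Pkd1-RC/RC against 38.6, 35.9 and 36.8 CPM in Pkhd1-/- (-0.79 ± 0.08, adjusted p = 0.000308). Ermard, an endoplasmic reticulum membrane protein, was at 20.2, 18.5 and 21.3 CPM against 10.3, 10.2 and 10.5 CPM (0.95 ± 0.10, adjusted p = 0.000587). Rsph3a, a radial spoke protein of cilia, was at 7.22, 7.26 and 8.05 CPM against 13.7, 14.1 and 14.8 CPM (-0.92 ± 0.10, adjusted p = 0.00135). Tagap, a GTPase-activating protein of T cells, was at 7.70, 6.25 and 7.08 CPM against 3.44, 3.17 and 3.93 CPM (0.997 ± 0.14, adjusted p = 0.00582). Wild-type kidneys lay close to Pkhd1-/- for Rnps1 (32.5 to 36.2 CPM), Ermard (10.1 to 12.3 CPM), Rsph3a (13.5 to 15.6 CPM) and Tagap (3.21 to 3.90 CPM).

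Dynlt1b, a dynein light chain gene in a cluster of near-identical copies, was at 9.20, 11.6 and 8.20 CPM against 1.90, 1.49 and 2.73 CPM (2.25 ± 0.22, adjusted p = 0.00034). Its neighbours Dynlt1a (-0.87 ± 0.39, adjusted p = 0.38) and Dynlt1c (1.16 ± 0.30, adjusted p = 0.137) did not pass, and reads may be split between them. The difference of the Notch ligand Dll1 was smaller (0.48 ± 0.09, adjusted p = 0.0442). The calls of Rnps1, Ermard, Rsph3a, Tagap and Dynlt1b held without each library in turn. That of Dll1 ended when Pkd1-RC/RC replicate 3 or any one of the Pkhd1-/- libraries was left out (differences of 0.40 to 0.55). That of Decr2 ended without Pkd1-RC/RC replicates 2 or 3 or Pkhd1-/- replicates 2 or 3 (differences of -0.61 to -0.47). Sex in the model ended the calls of Tagap (adjusted p = 0.0559), Dll1 (adjusted p = 0.215) and Decr2 (adjusted p = 0.183).

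Near Pkhd1, the lower side was the knockout in each case. Adhfe1, a mitochondrial alcohol dehydrogenase family enzyme (chr1:9547948-9580673), was at 126, 122 and 96.1 CPM in Pkd1-RC/RC and 56.1, 63.9 and 60.6 CPM in Pkhd1-/- (0.93 ± 0.12, adjusted p = 0.00479; 0.0425 with sex), beside 121 to 158 CPM in wild type and 39.9 to 49.5 CPM in digenic kidneys. The noncoding gene 2610203C22Rik, which overlaps Adhfe1 in position, was at 22.1, 19.7 and 16.9 CPM against 9.54, 10.7 and 10 CPM (0.96 ± 0.15, adjusted p = 0.0131), and its reads may not be separable from those of Adhfe1. Snhg6, a small nucleolar RNA host gene, was at 11.6, 15.9 and 14.5 CPM against 4.59, 4.85 and 5.21 CPM (1.52 ± 0.26, adjusted p = 0.0228). The call of Snhg6 was lost without any library but Pkd1-RC/RC replicate 1 and that of 2610203C22Rik without Pkd1-RC/RC replicate 2 or any one of the Pkhd1-/- libraries, with differences of 1.42 to 1.62 and 0.85 to 1.05. Both calls were also lost with sex in the model (adjusted p = 0.183 and 0.0597). On chromosome 4, 15 genes were called of 1160, and 11 of the 15 (Padi2, Fbxo44, Angptl7 and Eno1 among them) lay in one stretch of 163 tested genes from Pla2g5 to Eno1. Its bounds were chosen after the positions were seen. Of these 11, 2 (Padi2 and Angptl7) were higher and 9 lower in Pkd1-RC/RC. At an unadjusted p under 0.05, in either direction, 1 of them differed at P3 and 2 at P0, beside 705 of 18043 and 1105 of 18035 tested genes.

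**Figure D3:**
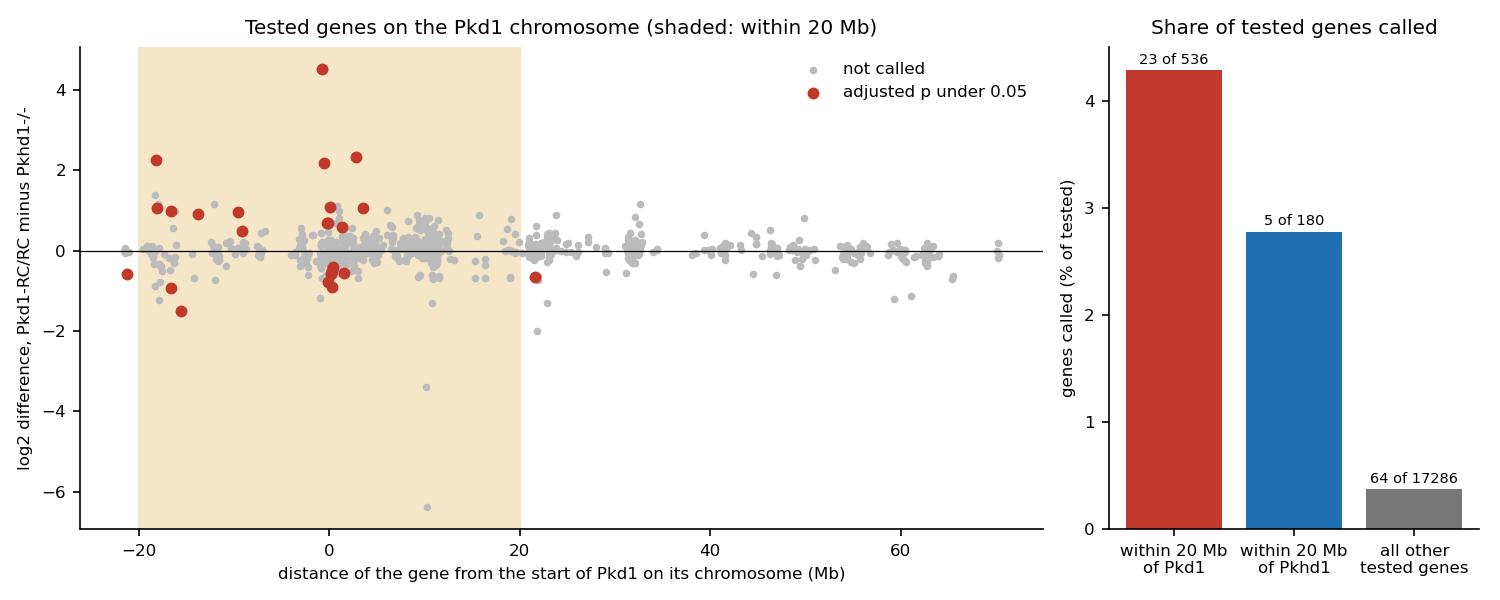
Left: log2 difference, Pkd1-RC/RC minus Pkhd1-/-, of each tested gene on chromosome 17 against its distance from the start of Pkd1 in Mb, called genes in red. Right: percentage of tested genes called within 20 Mb of Pkd1 (4.29%), within 20 Mb of Pkhd1 (2.78%, Pkhd1 itself included) and elsewhere (0.37%).

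The same contrast at P3 and P0 comes from other mice and shares no library with P12. The mix of sexes in its groups also differs between the ages, as given above. It gave 17 calls at P3 (0.0942% of 18043 genes) and 8 at P0 (0.0444% of 18035). Of the 23 genes called near Pkd1 at P12, 22 had the same sign at P3 and 21 at P0, and the 6 libraries of that age did not overlap, in the same direction, for 21 and 15 of them. Over all tested genes the libraries did not overlap, in either direction, for 9.97% at P3 and 9.53% at P0. All 5 genes near Pkhd1, among them Pkhd1 itself and 4930486I03Rik inside it, kept their sign at both ages. Of the 64 called elsewhere, 38 had the same sign at P3 and 47 at P0, beside 54.2% and 51.3% of all tested genes. The libraries of these 64 were separate in the same direction for 12 (18.8%) at P3 and 9 (14.1%) at P0, beside 5.93% and 4.71% of all tested genes.

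By gene, Rsph3a was at -1.05 ± 0.11 at P3 (adjusted p = 0.00131) and -1.21 ± 0.18 at P0 (adjusted p = 0.0316), close to its difference at P12. Rnps1 was at -0.72 ± 0.10 at P3 (adjusted p = 0.00862) and -0.63 ± 0.15 at P0 (adjusted p = 0.643). None of the 4 collecting duct genes shown by their promoters was called at the earlier ages. Scnn1b was at -0.05 ± 0.11 at P3 and -0.06 ± 0.18 at P0, Scnn1g at -0.16 ± 0.12 and 0.04 ± 0.18, Gata3 at -0.06 ± 0.09 and -0.01 ± 0.12, and Cldn4 at 0.18 ± 0.15 and -0.13 ± 0.25. At P3 the groups did not overlap for Scnn1g, lower in Pkd1-RC/RC, and for Cldn4, higher (adjusted p = 0.999 for both). The principal cell median was -0.05 at P3 and -0.13 at P0. Nell2 was at 0.07 ± 0.27 at P3 and 0.02 ± 0.25 at P0. A test of the change in difference from P0 to P12 called 7 of 18049 genes (0.0388%), Nell2 (change 1.97 ± 0.37, adjusted p = 0.0443), Bnipl, Ifitm1, Gas5, Slc4a5, Gen1 and Me2, and the count was 0 to 2 without one library other than Pkd1-RC/RC replicate 1, 150 without that one and 1 with sex in the model. Scnn1b, Scnn1g, Gata3 and Cldn4 were not among the 7, so their change with age is not shown.

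**Figure D4:**
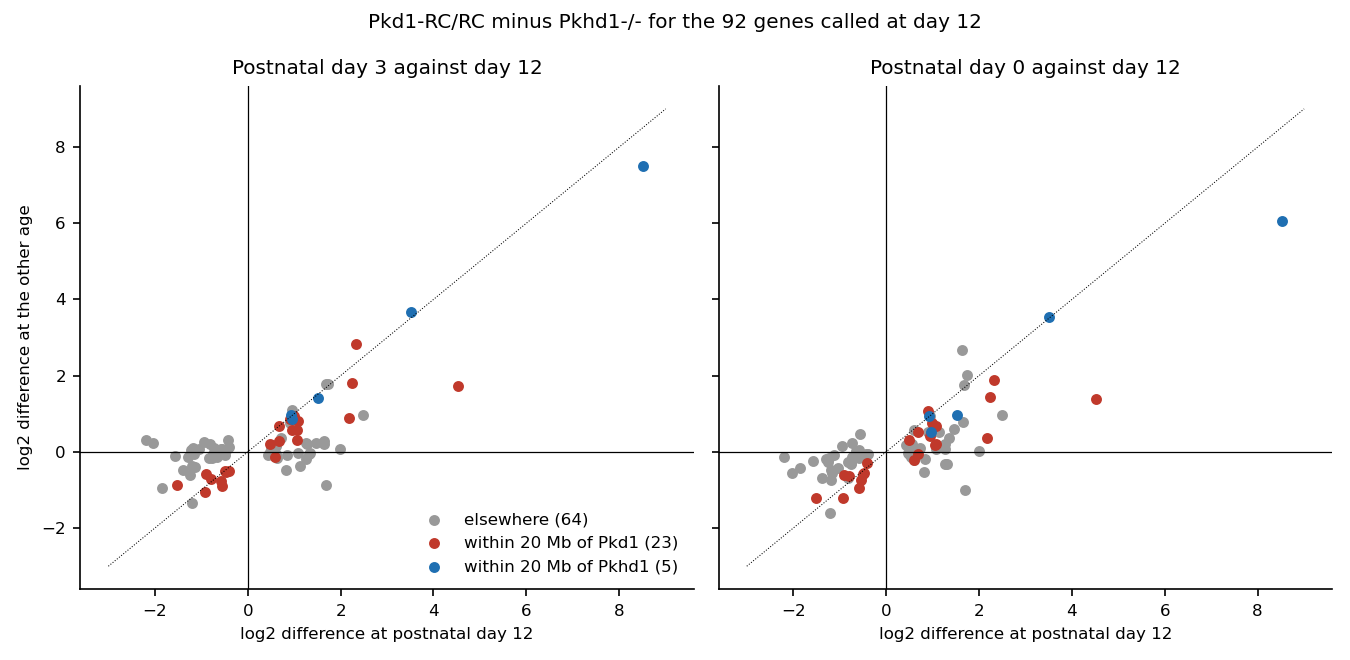
Log2 difference, Pkd1-RC/RC minus Pkhd1-/-, of the 92 genes called at postnatal day 12 (x axis) against the same difference in other mice at day 3 (left) and day 0 (right), with the dotted line marking equal differences. The 23 genes near Pkd1 and the 5 near Pkhd1, Pkhd1 itself among them, mostly keep their sign. Their median ratio to the difference at day 12 is 0.80 (near Pkd1) and 0.93 (near Pkhd1) at day 3, and 0.73 and 0.71 at day 0. Many of the 64 others lie near 0 on the y axis.

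Each single mutant was also set against the same 3 wild-type libraries, which gave 48 calls (0.267%) for Pkd1-RC/RC and 6 (0.0333%) for Pkhd1-/-. Since both share those controls, their values are given side by side only. For Rab6b they were -1.60 ± 0.17 (adjusted p = 0.00147) in Pkd1-RC/RC and -0.21 ± 0.17 (adjusted p = 0.957) in Pkhd1-/-. Padi2 stood at 1.29 ± 0.17 (adjusted p = 0.00451) and 0.03 ± 0.17, Ckb at -0.74 ± 0.10 (adjusted p = 0.00573) and 0.03 ± 0.10, and Igfbp2 at -1.45 ± 0.24 (adjusted p = 0.035) and 0.12 ± 0.23. In these genes the wild-type level lay at that of Pkhd1-/-. Scnn1b was at 0.42 ± 0.07 (adjusted p = 0.0208) and -0.20 ± 0.07 (adjusted p = 0.957), and Gata3 at 0.19 ± 0.10 (adjusted p = 0.701) and -0.37 ± 0.10 (adjusted p = 0.957), with wild type between the mutants. Nell2 was at 1.29 ± 0.16 (adjusted p = 0.00362) and -0.70 ± 0.17 (adjusted p = 0.957).

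**Figure D5:**
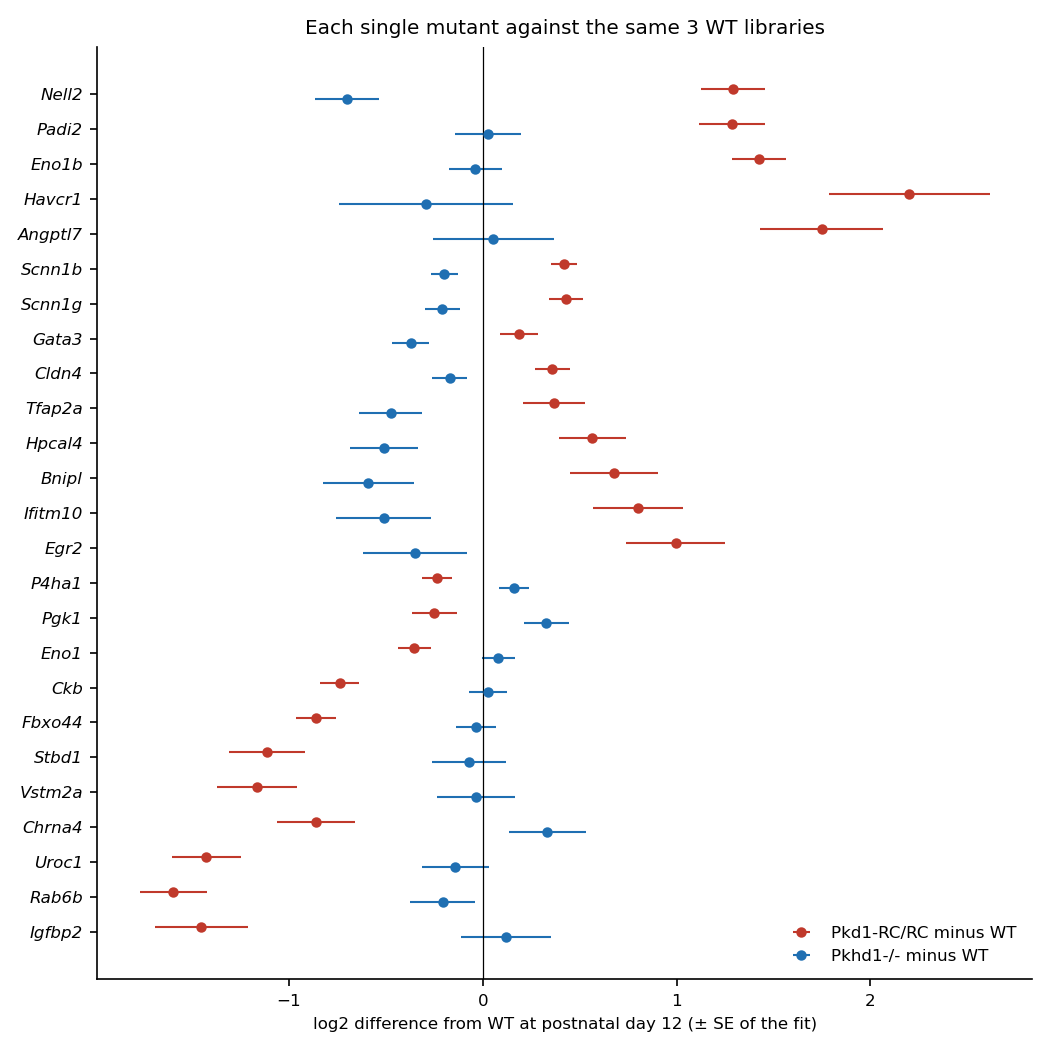
Log2 difference from wild type at postnatal day 12 for 25 named genes in Pkd1-RC/RC (red) and Pkhd1-/- (blue), with the SE of the fit as bars; both use the same 3 wild-type libraries. Igfbp2, Ckb and Padi2 have Pkhd1-/- values at or near 0, and for Gata3, Tfap2a and Nell2 the 2 mutants lie on opposite sides of 0.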

How the data were processed

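The authors deposited raw counts per gene for 18049 genes. Per the submitters' processing notes and series design, MAP-RSeq 2.1.0 aligned reads to mm10 by TopHat2 with Bowtie, and featureCounts counted them. The lowest mean of a row is 8.75 counts. Another 36 per-sample columns were not used. Positions are from GENCODE M21 (98.98% of identifiers).

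Counts of the 12 P12 libraries were fitted together, 1 term per genotype, in edgeR 4.0.16 (R 4.3.3) with filterByExpr, TMM, robust quasi-likelihood tests and Benjamini-Hochberg adjustment over all tested genes. Calls have an adjusted p under 0.05. P3 and P0 were fitted alike, and the change with age over all 36 libraries. Alternatives were DESeq2 1.42.0, other filters and library sets, sex, a replicate block and leaving out each library.

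Named are Pkd1, Pkhd1, Pkd2, the 12 largest calls per direction (separate groups, official symbol, no pseudogene, neither Xist, Tsix nor of chromosome Y, average log2 CPM not below 0, over 20 Mb from both genes), 5 near each, and up to 4 called genes per list (59 lists). Uncalled members and copies were named after their values were seen. Comparison, members and lists were chosen with earlier results of these data known. Some genes that the rule picks are not reported here.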

Additional observations from a re-analysis of the deposited data

Results flagged for a closer look

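The difference between Pkd1-RC/RC and Pkhd1-/- changed with age for Nell2, by 1.9744 on the log2 scale from postnatal day 0 to day 12, and for Bnipl, by 1.5906. Both passed the edgeR test of the change itself over 36 libraries (adjusted p = 0.0443 each). Bnipl, a BNIP2-like protein gene, was at 1.67, 1.72 and 2.37 CPM in Pkd1-RC/RC and 0.702, 0.983 and 0.700 CPM in Pkhd1-/- at day 12. No gene passed that test when Pkd1-RC/RC replicate 2 or 3 or Pkhd1-/- replicate 1 or 2 was left out. With sex in the model 1 gene passed. The mix of sexes in the 2 groups differs between day 0 and day 12.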

How the results depend on the processing

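At P12, 51 genes were higher and 41 lower in Pkd1-RC/RC. DESeq2's Wald test gave 213 and 185, the 6 single-mutant libraries alone 124 and 110, a sex term 17 and 9, and the 8 male libraries, an alternative chosen after seeing the data, 5 and 2. Leaving out 1 library gave 21 to 107 higher and 14 to 213 lower, both highest without Pkd1-RC/RC replicate 1. With the replicate number as a block the counts were 39 and 26, 61 of these 65 among the 92. Same-numbered libraries deviated with r of -0.194, 0.0108 and -0.248. Deviations within groups of 3 libraries depend on each other, so these values cannot decide whether the numbers pair the libraries. Size factors of DESeq2, no filter, a filter of 1 CPM in 3 libraries and all 36 libraries together kept both counts within 1.5 times.

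At P0 (8 calls) DESeq2 gave 34, the 6 libraries 1, the block 3, and leaving out 1 library 3 to 6. At P3 (17 calls) these were 78, 47, 9 and 6 to 12. The 7 genes whose difference changed from P0 to P12 became 0 with the block, 1 with sex and 0 to 150 without 1 library, 150 without Pkd1-RC/RC replicate 1. The uncalled difference of Pkd1 ran from -0.1163 (without Pkd1-RC/RC replicate 3) to 0.1369 (without replicate 2) and was also below 0 without Pkhd1-/- replicate 3. The cause of these shifts was not tested. Levels near 1 CPM or below, as for Havcr1 and Egr2 in some libraries, rest on fewer counts than higher levels do. Havcr1 also varied within Pkd1-RC/RC (3.40, 1.08 and 3.34 CPM).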
